A study of Mus musculus with 24 samples.

Results

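The regulatory T cells (Tregs) of the draining lymph node were compared between 3 libraries labelled KO and 3 labelled WT, 6 of the 24 libraries of a bulk RNA sequencing study, chosen by the labels for tissue, cell type and genotype. The mice carried tumours grown from B16-F0, a melanoma cell line of the mouse that makes pigment. The genotype of the WT label was Foxp3-Cre, in which the Foxp3 gene drives Cre recombinase, and that of the KO label was Foxp3-Cre with Appl2 f/f, so that both groups carried the Cre and deletion was meant only for cells that express Foxp3. The labels give no age, and whether each library stands for its own animal is not said, so that p-values measure only the spread between these libraries, which may be technical. The comparison was described across all genes, with attention to genes that RNA from B cells, as measured in the 3 lymph node B cell libraries labelled KO, could not raise.

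Tregs are CD4 T cells that hold other lymphocytes in check and depend on the transcription factor Foxp3, on interleukin 2 received through Il2ra and on the inhibitory receptor Ctla4. In a lymph node they circulate through high endothelial venules and respond to antigen through the T cell receptor, which induces immediate early genes such as the Fos, Egr and Nr4a families within a short time. Appl2 codes for an adaptor protein found on early endosomes, where Rab5, a small GTPase, recruits it.

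The 6 libraries held between 11461227 and 16239055 reads, and between 20106 and 21217 genes had reads. Of the counts from 1 to 10, between 72 and 75.1 % were even. Counting each end of a pair separately gives such a pattern, and there would then be fewer fragments than counts. Levels below are given as CPM (read counts relative to library size), scaled by TMM over these 6 libraries, and every "rose", "fell", "higher" or "lower" is KO label relative to WT label. Each change is on the log2 scale, given ± its standard error, and a gene passed at an adjusted p under 0.05 over all genes tested. Appl2 (GRCm39 chr10:83435897-83484602, minus strand) stood at 26.9, 22.6 and 19.1 CPM in the libraries labelled WT and at 27.5, 23.4 and 29.2 CPM in those labelled KO. The groups overlapped, and the difference of 0.23 ± 0.12 did not pass (edgeR quasi-likelihood test, adjusted p = 0.16). Without WT replicate 1 it was called higher, at 0.36 (edgeR, adjusted p = 0.020). The libraries labelled KO thus showed no fall of the targeted gene in total reads, and every direction below follows the labels alone. In lymph node B cells, in which deletion was not meant, Appl2 fell by 1.08, with a standard error of 0.13 (edgeR, adjusted p = 9.7e-08). Whether libraries were exchanged between labels or cell types was not tested. Gene totals hold no exon resolution, so whether the flanked exons were removed cannot be told apart from an intact gene.

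The sorted cells carried the defining genes of Tregs in both groups. Foxp3 (chrX:7439883-7461484, plus strand) stood at 346, 369 and 358 CPM in the libraries labelled WT and at 339, 342 and 347 CPM in those labelled KO. The groups overlapped and the difference of -0.06 ± 0.04 did not pass. Other annotated genes share 31.5 % of its exon bases, and its level is uncertain to that extent. Il2ra stood at 457, 460 and 476 CPM under the WT label and at 415, 434 and 411 CPM under the KO label, and all 3 libraries labelled KO lay below those labelled WT. Its change of -0.15 ± 0.04 passed (edgeR, adjusted p = 0.013), was no longer called once B cell RNA was allowed for, at -0.08, and lost its call without KO replicate 1 or replicate 3 (edgeR, adjusted p = 0.091 and 0.095). Ctla4 stood at 950, 916 and 873 CPM under the WT label and at 1408, 1352 and 1444 CPM under the KO label. Each library labelled KO was above each labelled WT, a change of 0.62 ± 0.04 (edgeR, adjusted p = 1.2e-12), and it was 0.68 with B cell RNA allowed for.

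Of 14613 genes tested, 3689 passed (25.2 %), 2010 of them higher (13.8 %) and 1679 lower (11.5 %). Counts of list members below are to be read beside these shares. Most of these changes were small. A fold under 1.2 was fitted for 391 of the higher and 381 of the lower genes, and a fold of at least 2 for 540 higher (3.7 %) and 323 lower (2.21 %) genes. Most genes with a large fall were low under the KO label, which choosing them for their fall itself favours. Of the 323 genes that fell at least 2-fold, 309 were under 5 CPM in the libraries labelled KO and 6 were at 20 CPM or more. In bulk RNA, fewer cells of a type and less RNA per cell cannot be told apart, and this holds for every fall below.

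B cell RNA moved with the label. Measured against the lymph node B cell libraries labelled KO, 18 B cell markers amounted in the median to 5.74 ± 0.307 % of the RNA in the libraries labelled KO and to 1.32 ± 0.297 % in those labelled WT (SD, n = 3). The lowest single marker, Pax5, gave 4.69 ± 0.0625 and 0.759 ± 0.08 %, and the highest among markers with at least 50 CPM in the B cell libraries, Cd72, gave 10.8 ± 0.361 and 4.55 ± 0.252 %. Another annotated gene, Tesk1, shares 41.6 % of the exon bases of Cd72, and the level of Cd72 is uncertain to that extent. Every library labelled KO was above every library labelled WT in the median share, with 5.46 % as the lowest and 1.62 % as the highest value. Mixing in B cell RNA can raise a gene only where its level in B cells is above that in the Tregs. Of the 2010 genes that rose, 554 (27.6 %) had a mean level in the B cell libraries at or below that in the Tregs labelled WT, and B cell RNA could not raise them. A further 264 (13.1 %) rose by no more than the highest single-marker share allows, 151 where only markers of at least 50 CPM set that share. The other 1192 (59.3 %) rose by more than that. Among genes that rose at least 2-fold, 124 of 540 could not be raised by B cell RNA. The choice of these 124 nearly fixes that their groups do not overlap, as held for all of them and for 38.1 % of all genes tested, and nothing is read from it.

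The direction of change went with the level in B cells. The level in Tregs labelled WT enters both the split of genes below and their change, so these are not independent. The B cell level is from libraries labelled KO, so a rise shared by both cell types also moves a gene to the higher side. How far this sets the pattern was not tested. Of 8619 genes whose B cell level was at or below the Treg level, 6.43 % rose and 16.7 % fell, with a median change of -0.10. Of 5994 genes with the higher level in B cells, 24.3 % rose and 4.02 % fell, with a median of 0.12. For 252 genes more than 10-fold higher in B cells, 209 rose and 0 fell (82.9 and 0 %; edgeR at adjusted p under 0.05), with a median of 1.69. A second fit took from each gene, in each library, the change that the median B cell share predicts. In it 3193 genes passed (21.9 %), 1696 higher (11.6 %) and 1497 lower (10.2 %), and 1635 of the 2010 higher and 1448 of the 1679 lower genes kept their call, with 0 changing direction. The median of the 252 genes highest in B cells went to 0.33 in that fit, from 1.69 without the offset. Values "beyond B cell RNA" below are from that fit.

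**Figure D1:**
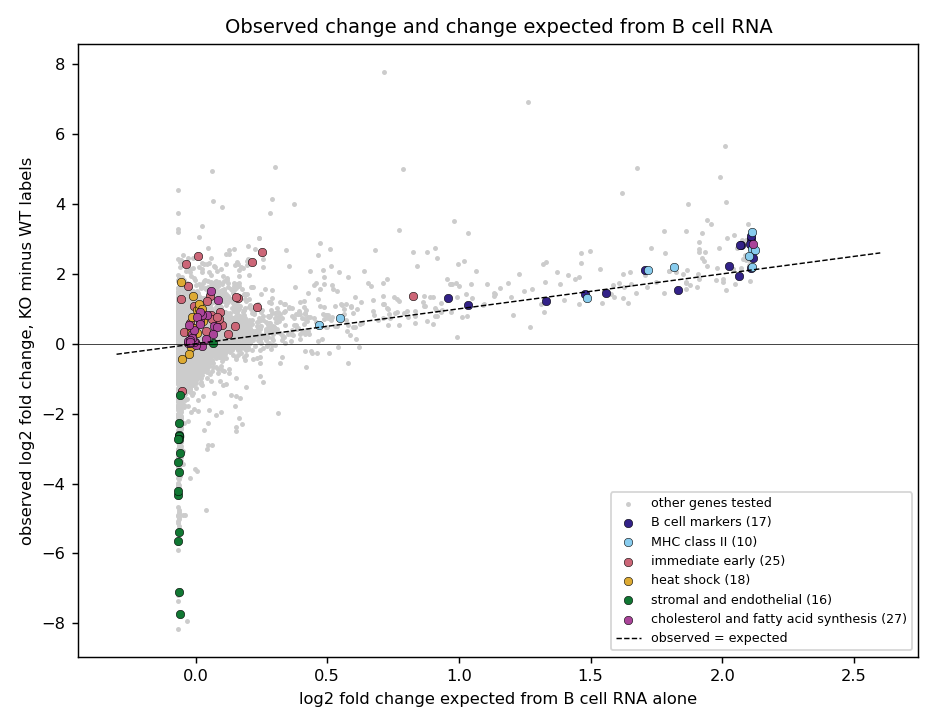
Each point is 1 gene tested in lymph node Tregs, with the log2 fold change expected from the B cell RNA shares alone on the x axis and the observed log2 fold change, KO minus WT label, on the y axis. Of the B cell markers 12 of 17 and of the MHC class II genes 9 of 10 lie on or above the dashed line of equality, heat shock genes lie near 0 on the x axis and mostly above 0 on the y axis, and stromal genes lie near 0 on the x axis and below the line.

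Among genes that B cell RNA could not raise, the largest rises at 10 CPM or more were in Nr4a2, Zfand2a, Rgcc, Bag3, Nr4a3, Gadd45b, Ntn4, Arc, Rgs16 and Apol7c. They include nuclear receptors and other genes of the antigen receptor response, stress-induced chaperone partners and a regulator of G protein signalling. Nr4a2 (chr2:56996842-57014015, minus strand), an orphan nuclear receptor induced by antigen, stood at 27.6, 30.3 and 28.1 CPM under the WT label and at 136, 143 and 142 CPM under the KO label. The libraries labelled KO sat close together and far above the others, and B cells held 13.4 CPM. The change was 2.33 beyond B cell RNA. Nr4a3 (chr4:48045153-48086447, plus strand), a second receptor of that family, stood at 134, 133 and 125 CPM and at 412, 421 and 393 CPM, with no overlap and a change of 1.65 ± 0.05 (edgeR, adjusted p = 5.2e-21). Gadd45b, a stress sensor of the NF-kB programme, went from 41.1, 52.6 and 53 CPM to 148, 154 and 153 CPM.

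Rgs16 (chr1:153616095-153621214, plus strand), which shortens signals from chemokine and other G protein-coupled receptors, stood at 22.8, 27.8 and 26 CPM under the WT label and at 71.2, 76 and 66.8 CPM under the KO label. No library labelled WT reached the level of one labelled KO, and the change was 1.48 ± 0.08 (edgeR, adjusted p = 1.2e-14). Other annotated genes share 10.1 % of its exon bases, and the B cell libraries held 0.162 CPM of Rgs16, far less than the Tregs. Ntn4, a secreted netrin, went from 11.7, 13.5 and 10.5 CPM to 36, 40.7 and 32 CPM, a change of 1.61 ± 0.12, with 0.108 CPM in B cells. Arc, known best as an immediate early gene of neurons, went from 6.02, 8.28 and 6.59 CPM to 19.2, 21 and 18.3 CPM. Rgcc, a regulator of the cell cycle, changed by 1.83 ± 0.15 and Apol7c, an apolipoprotein L family gene, by 1.46 ± 0.15. In each of these genes every library labelled KO lay above every one labelled WT.

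Further members of the 124 were picked out after their values were seen. Fosl2, an AP-1 subunit, rose from 82.2, 74.5 and 81.9 CPM to 190, 194 and 194 CPM. Lmna, the gene of nuclear lamins A and C, rose from 43.6, 47 and 48.7 CPM to 103, 103 and 101 CPM. Bhlhe40, a transcription factor of activated T cells, rose from 103, 106 and 99.2 CPM to 216, 207 and 199 CPM. Lif, a cytokine, had no reads in the B cell libraries labelled KO and rose from 9.72, 6.74 and 7.03 CPM to 17.7, 17.9 and 18.2 CPM. Of the 124 genes, 29 averaged at least 10 CPM, 29 were predicted genes and 17 belonged to a gene list used here.

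**Figure D2:**
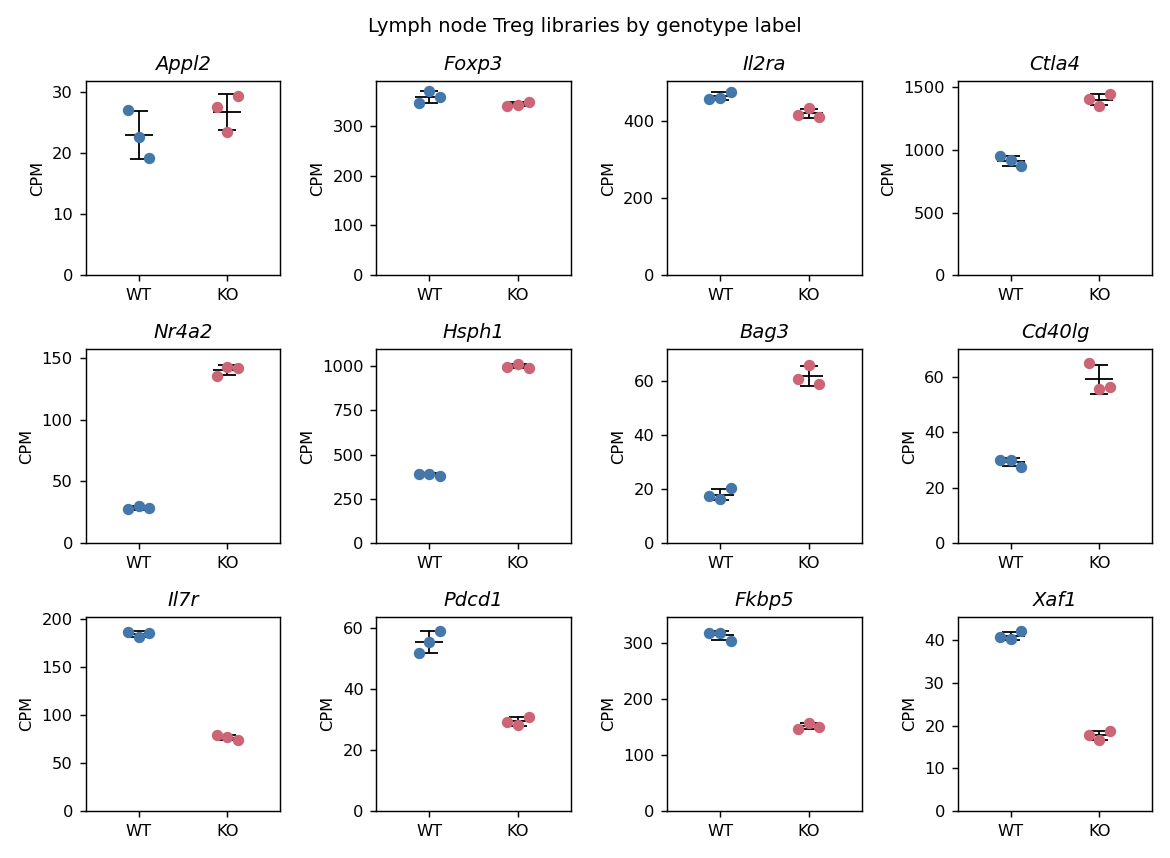
Each panel gives the level in CPM (y axis from 0, scaled over the 6 libraries) of 1 gene in the 3 libraries labelled WT and the 3 labelled KO, with a bar for the mean and whiskers for the SD. Appl2 and Foxp3 overlap between the groups, Ctla4, Nr4a2, Hsph1, Bag3 and Cd40lg are higher under the KO label in every library, and Il2ra, Il7r, Pdcd1, Fkbp5 and Xaf1 are lower.

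Immediate early genes were higher as a group. Of 25 tested, 24 rose and 1 fell, with a median change of 1.04 against -0.01 over all genes. Beyond B cell RNA 23 rose, with a median of 0.80. In lymph node B cells, in which deletion was not meant, 24 of the 25 rose, with a median of 1.52, where 10.2 % of all genes tested rose. Atf3, a stress-induced AP-1 partner, stood at 9.72, 9.18 and 9.88 CPM under the WT label and at 54.7, 55.6 and 52.9 CPM under the KO label. Its 3 libraries labelled KO were nearly alike and well clear of the others, a change of 2.49 beyond B cell RNA, although B cells held only 10.9 CPM. Klf4, a Krüppel-like factor, rose from 27.3, 26.8 and 25.1 CPM to 140, 137 and 124 CPM, and of its change of 2.34 a rise of 0.21 was expected from B cell RNA. For Fosb, an AP-1 subunit, 0.25 of 2.64 was expected. Ier3, which protects cells from death, was the 1 member that fell, and it was low, at 1.72, 0.974 and 2.05 CPM against 0.752, 0.617 and 0.465 CPM. Its groups did not overlap, but the call was lost without any one of 5 of the 6 libraries.

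Ppp1r15a (chr7:45172340-45175692, minus strand), the phosphatase subunit that restarts translation after stress, belongs both to the immediate early genes and to the integrated stress response. It stood at 924, 934 and 902 CPM under the WT label and at 2370, 2461 and 2327 CPM under the KO label, with no overlap, a change of 1.38 ± 0.04. Its RefSeq promoter (250 bases before to 50 after the start) holds the cAMP response element TGACGTCA, in capitals here, and is shown as an example of an immediate early promoter with that element:
Ppp1r15a, GRCm38.p6 chr7:45526219-45526518, minus strand: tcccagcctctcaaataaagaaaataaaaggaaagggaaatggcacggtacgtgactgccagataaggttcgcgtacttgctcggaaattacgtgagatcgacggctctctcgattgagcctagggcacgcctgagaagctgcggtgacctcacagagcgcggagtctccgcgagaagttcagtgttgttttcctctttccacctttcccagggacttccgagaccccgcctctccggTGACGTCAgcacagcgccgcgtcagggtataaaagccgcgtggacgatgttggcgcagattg
The element, which reads the same on both strands, was in promoters of 3 of the 21 immediate early genes with a promoter in that table (Btg2, Dusp1 and Ppp1r15a), 14.3 % against 2.03 % of 27025 genes, and all 3 genes rose, as did 24 of the 25 in the whole list. A match of letters is a description and shows no binding.

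The genes of the antigen receptor response overlap with these. Of 18 tested, 14 rose and 2 fell, with a median of 0.97 and of 0.78 beyond B cell RNA. In lymph node B cells 14 of the 18 rose and 2 fell, with a median of 0.94. Nr4a1, the reporter gene of T cell receptor signal strength, rose from 142, 152 and 145 CPM to 358, 375 and 384 CPM. Cd69, an early activation receptor that retains lymphocytes in tissue, rose from 88.8, 86.6 and 88.2 CPM to 187, 191 and 193 CPM. Both genes were higher in every library labelled KO. The 2 that fell were Ikzf2 and Tnfrsf9, the costimulatory receptor 4-1BB, which went from 64.3, 70.9 and 66 CPM to 48.8, 37.3 and 46.8 CPM, a change of -0.60 ± 0.08.

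Heat shock genes were higher for 13 and lower for 1 of 18, with a median of 0.46 and of 0.47 beyond B cell RNA. Of the 13, 7 could not be raised by B cell RNA. In lymph node B cells 10 of the 18 rose, with a median of 0.23. Hsph1 (chr5:149537752-149559841, minus strand), a nucleotide exchange factor of Hsp70, stood at 391, 393 and 382 CPM under the WT label and at 997, 1015 and 990 CPM under the KO label. Both groups were tight and far apart, a change of 1.36 ± 0.04 (edgeR, adjusted p = 7.4e-21), with 337 CPM in B cells. Bag3, a partner of Hsp70 in protein clearance, rose from 17.5, 16.2 and 20.2 CPM to 60.6, 66 and 58.7 CPM, and Dnajb4, an Hsp40, from 36.1, 37.7 and 40.4 CPM to 159, 156 and 160 CPM. Zfand2a, which is induced by arsenite and attaches to the proteasome, rose from 9.64, 10.8 and 9.45 CPM to 35.2, 36 and 38.7 CPM. The 3 genes were well separated between labels. Hspa1a and Hspa1b, near-identical copies of inducible Hsp70 between which reads can be split, rose, by 1.13 ± 0.04 for Hspa1a and from a mean of 2026 to 4064 CPM for Hspa1b. Chordc1 was the member that fell, by 0.29, and Hsf1, the factor that drives these genes, differed by -0.01 and did not pass.

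The promoter of Hsph1 is shown for its heat shock elements, searched as GAANNTTC and TTCNNGAA on both strands, of which 3 partly overlapping matches are in capitals:
Hsph1, GRCm38.p6 chr5:149636266-149636565, minus strand: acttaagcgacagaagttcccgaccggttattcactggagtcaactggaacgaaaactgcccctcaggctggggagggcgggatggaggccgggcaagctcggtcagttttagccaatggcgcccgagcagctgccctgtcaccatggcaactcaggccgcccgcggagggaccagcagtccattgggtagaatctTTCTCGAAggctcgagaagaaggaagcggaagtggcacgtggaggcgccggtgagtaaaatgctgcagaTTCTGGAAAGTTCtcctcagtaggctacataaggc
The element was present in 9 of the 14 heat shock genes with a promoter in the table (64.3 %) and in 17.0 % of 27025 genes. Of those 9 genes 7 rose and 1, Chordc1, fell.

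Genes of TNF and NF-kB signalling rose for 17 and fell for 0 of 20 (edgeR at adjusted p under 0.05). Their median was 0.44, and 0.41 beyond B cell RNA, and 8 of the 17 could not be raised by B cell RNA. In lymph node B cells 13 of the 20 rose and 1 fell, with a median of 0.32. Tnfaip3, the ubiquitin-editing inhibitor A20, stood at 812, 809 and 805 CPM under the WT label and at 1466, 1458 and 1450 CPM under the KO label. The groups were narrow and did not overlap, with 133 CPM in B cells. Rel, the NF-kB subunit needed for Treg development, rose from 123, 129 and 122 CPM to 336, 334 and 341 CPM, a change of 1.43 ± 0.05, and Nfkbie, an inhibitor of NF-kB, by 1.19 ± 0.09. Of 15 integrated stress response genes 6 rose and 1 fell, with Atf4, the central transcription factor, from 105, 103 and 103 CPM to 226, 212 and 224 CPM. Ddit3, its target CHOP, changed by 0.81 ± 0.07, while Asns and Trib3, further ATF4 targets, differed by 0.15 and 0.06 and did not pass. Of 20 survival and death genes 7 rose and 2 fell. Pmaip1, which codes for the death promoter Noxa, rose from 108, 104 and 111 CPM to 250, 250 and 263 CPM, and Bcl2, a survival factor of resting T cells, fell by 0.45, from 198, 197 and 173 CPM to 128, 145 and 144 CPM. The pro-survival Mcl1 and Birc2 rose by 0.40 ± 0.04 and 0.48 ± 0.05. Of 15 TGF-beta pathway genes 6 rose and 1 fell, led by the repressors Tgif1, with 0.74 ± 0.07, and Skil, with 0.59 ± 0.05.

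Treg identity genes moved little and mostly down. Of 17 tested, 2 rose and 8 fell, with a median of -0.11 and of -0.04 beyond B cell RNA, where 2 rose and 6 fell. Each of the 8 that fell did so by less than 0.4, and against a fold of 1.2 none of them passed (edgeR glmTreat at adjusted p under 0.05), nor did more than 1 in a fit on all 24 libraries. Ikzf2, the transcription factor Helios, went from 544, 528 and 493 CPM to 435, 435 and 443 CPM, a change of -0.25 ± 0.04. Izumo1r, the folate receptor 4 that marks Tregs, went from 121, 129 and 140 CPM to 110, 107 and 107 CPM. The 2 that rose were Ctla4 and Plagl1, a zinc finger factor, which went from 26.8, 25.7 and 29.5 CPM to 48.8, 48 and 47.1 CPM. For none of these 3 genes did the libraries of the labels overlap.

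Of 25 genes of effector Tregs, 13 fell and 3 rose, with a median of -0.23 and of -0.17 beyond B cell RNA, where 10 fell. Against a fold of 1.2, 6 fell and 3 rose. Pdcd1 (chr1:93966027-93980278, minus strand), the inhibitory receptor PD-1, stood at 51.6, 55.4 and 59.1 CPM under the WT label and at 29.3, 28 and 30.9 CPM under the KO label, and had no reads in the B cell libraries labelled KO. The libraries labelled KO were all lower, a change of -0.92 ± 0.08 (edgeR, adjusted p = 3.3e-10). Tigit, another inhibitory receptor, went from 191, 183 and 197 CPM to 132, 138 and 133 CPM, and Gzmb, a cytotoxic protease, from 66.7, 70.9 and 70.4 CPM to 38.2, 35.5 and 39.9 CPM. The members that rose were Irf4, Rora and Il10. Rora, a nuclear receptor of tissue Tregs, stood at 132, 133 and 126 CPM against 222, 238 and 229 CPM, with 0.327 CPM in B cells. Il10, the suppressive cytokine, stood at 24.3, 21.9 and 22 CPM against 36.4, 28.7 and 33.6 CPM, a change of 0.54 ± 0.10. Of the inhibitory receptors named here, Ctla4 rose and Pdcd1 and Tigit fell, while Havcr2 differed by 0.12 and did not pass.

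Of 15 genes of helper T cells, 4 rose and 3 fell, where 13.8 % of all genes tested rose and 11.5 % fell. Cd40lg, the ligand through which T cells help B cells, rose from 29.9, 30.1 and 27.6 CPM to 64.8, 55.7 and 56.4 CPM, which is a change of 1.02 ± 0.08 (adjusted p = 5.1e-11 by edgeR), with 0.0557 CPM in B cells. All libraries labelled KO were above those labelled WT. The others that rose were Tnf, Tbx21 and Eomes, the last 2 with means under 5 CPM in both groups. Among 24 genes of the T cell receptor complex and its signalling 3 rose and 9 fell, with a median of -0.13. The part that rose was near the share over all genes. Cd28, a costimulatory receptor, rose by 0.50 ± 0.06, and the receptor chain Cd3g fell by 0.28. Against a fold of 1.2, 1 gene rose and 1 fell.

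Of 15 genes of naive and central T cells, 4 rose and 4 fell, where 13.8 % of all genes tested rose and 11.5 % fell. Il7r (chr15:9505874-9530262, minus strand), the interleukin 7 receptor, stood at 186, 181 and 185 CPM under the WT label and at 78.5, 76.6 and 73.4 CPM under the KO label. The groups were far apart, a change of -1.27 ± 0.05 (edgeR, adjusted p = 1.9e-17). Ccr7, the chemokine receptor for entry into lymph nodes, rose from 50.7, 49.3 and 50.8 CPM to 76.3, 74.1 and 79.8 CPM. Klf2, a factor of T cell quiescence and migration, rose by 0.70 ± 0.06. B cells express both, and beyond B cell RNA the changes were 0.53 and 0.64. Among 22 chemokine and homing receptors 4 rose and 6 fell. Ccr2, which guides cells to inflamed tissue, went from 94.7, 95.4 and 89.4 CPM to 55.8, 54.1 and 55 CPM, and Gpr15, a receptor of gut and skin homing, from 21.1, 23.7 and 19.5 CPM to 13, 9.72 and 9.61 CPM. Each fell in every library labelled KO.

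Decreases of genes that stayed at 20 CPM or more under the KO label were led by Ighg1, App, Il7r, Sri, C3, Fkbp5, Slfn1, Pik3ip1, Ifit3 and Pdcd1. Fkbp5 (chr17:28618068-28736501, minus strand), a cochaperone induced by glucocorticoids, stood at 318, 318 and 304 CPM against 147, 158 and 151 CPM, which is a change of -1.05 ± 0.05 (adjusted p = 1.3e-16 by edgeR). The groups were narrow and well apart. Pik3ip1, an inhibitor of PI3 kinase in T cells, went from 68, 74.4 and 66.2 CPM to 37.7, 36.3 and 31.9 CPM, and Sri, the calcium-binding protein sorcin, from 64.3, 58.4 and 67.5 CPM to 26.1, 26.9 and 27.2 CPM. App, the amyloid precursor protein, changed by -1.29 ± 0.09 and C3, the complement component, by -1.14 ± 0.08, and both are also expressed in stromal cells, whose markers fell. Their part in these falls was not tested. The other genes in this set kept a fall beyond B cell RNA of between -1.94 for Ighg1 and -0.85 for Pdcd1.

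Slfn1, a member of the Schlafen family of growth regulators, stood at 99.4, 102 and 104 CPM under the WT label and at 55.3, 50.1 and 47.8 CPM under the KO label. Its neighbours in the family were looked up after that value had been seen. Slfn2 went from 642, 642 and 667 CPM to 387, 369 and 388 CPM and Slfn5 from 156, 145 and 154 CPM to 92.1, 91.5 and 88.4 CPM. Slfn9 and Slfn3 fell by 0.62 and 0.39, and Slfn8 and Slfn4 differed by -0.06 and -0.18 and did not pass. These paralogues resemble each other, and reads may be shared between them.

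Of 29 genes of the type I interferon response, 16 fell and 1 rose, with a median of -0.33 and of -0.32 beyond B cell RNA, where 14 fell. Xaf1, a death-promoting interferon target, stood at 40.8, 40.3 and 42.1 CPM under the WT label and at 17.8, 16.7 and 18.8 CPM under the KO label, with no overlap, a change of -1.21 ± 0.09. Ifit3 (chr19:34560931-34566131, plus strand), an antiviral RNA-binding partner, went from 54.5, 54.6 and 56.9 CPM to 30.3, 27.9 and 26.6 CPM. Reads of Ifit3 may be shared with its near-identical copy Ifit3b. Oasl1 was the member that rose, from 2.84, 2.76 and 3 CPM to 5.7, 5.79 and 5.43 CPM, and Stat2, a signal transducer of the pathway, differed by 0.04 and did not pass. The promoter of Ifit3 is shown for its interferon-stimulated response elements, searched on both strands as GAAA, any 2 bases and GAAA again, with 2 matches on the other strand in capitals:
Ifit3, GRCm38.p6 chr19:34583279-34583578, plus strand: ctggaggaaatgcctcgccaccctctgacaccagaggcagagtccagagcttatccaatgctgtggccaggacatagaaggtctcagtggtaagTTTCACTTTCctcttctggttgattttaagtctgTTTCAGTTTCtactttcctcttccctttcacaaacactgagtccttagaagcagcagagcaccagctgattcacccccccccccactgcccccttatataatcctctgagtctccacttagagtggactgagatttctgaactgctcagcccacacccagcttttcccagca
The element was present in 10 of the 19 interferon response genes with a promoter in the table (52.6 %) and in 3.99 % of 27025 genes. Of those 10 genes 5 fell and 0 rose (edgeR at adjusted p under 0.05).

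Genes of cholesterol and fatty acid synthesis rose for 13 and fell for 0 of 27 (edgeR at adjusted p under 0.05), with a median of 0.29 and of 0.30 beyond B cell RNA, where again 13 rose. Insig1, the sterol-sensing anchor of SREBP, went from 11.4, 11.2 and 9.81 CPM to 28.3, 33.9 and 30.7 CPM. Cyp51 and Hmgcs1, enzymes of the pathway, rose by 0.92 ± 0.10 and 0.83 ± 0.10, with every library labelled KO above those labelled WT. Scd1, a fatty acid desaturase, went from 8.09, 8.69 and 6.81 CPM to 57.3, 58.6 and 55.8 CPM, but B cells held 1019 CPM, and of its change of 2.87 an expected 2.12 was B cell RNA. Beyond B cell RNA at the median share, Scd1 still passed, at 0.74 ± 0.14, and its rise was no larger than the highest single-marker share allows. The rises of Insig1, Cyp51 and Hmgcs1 were larger than that share allows for them. The promoter of Hmgcs1 is shown for the sterol regulatory element TCACNCCAC, searched on both strands, in capitals:
Hmgcs1, GRCm38.p6 chr13:119690101-119690400, plus strand: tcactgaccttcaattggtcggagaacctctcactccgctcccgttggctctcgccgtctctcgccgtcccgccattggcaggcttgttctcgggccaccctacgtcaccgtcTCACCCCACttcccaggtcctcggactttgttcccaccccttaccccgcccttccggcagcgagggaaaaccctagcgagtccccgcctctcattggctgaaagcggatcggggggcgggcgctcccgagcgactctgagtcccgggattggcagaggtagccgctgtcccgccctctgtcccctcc
Hmgcs1 was the 1 gene of 18 in this list with the element in the table (5.6 %), against 1.44 % of 27025 genes.

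Of 19 genes of glycolysis, 10 fell and 3 rose, with a median of -0.19. Eno1 and Tpi1, enzymes of the pathway, went by -0.53 ± 0.05 and -0.58 ± 0.06, with Tpi1 at 76.6, 77 and 76.9 CPM against 50.5, 51.8 and 52 CPM. Hk2, the inducible hexokinase of the first step, rose from 15.2, 11.3 and 14.6 CPM to 24.3, 25.2 and 22.2 CPM. Of 11 mitochondrially encoded genes 5 fell and 0 rose (edgeR at adjusted p under 0.05), by less than 0.3 each, and mitochondrial reads took 0.669 ± 0.0266 % under the KO label and 0.782 ± 0.0376 % under the WT label. Cell cycle genes fell for 8 and rose for 1 of 33, with Mki67, the marker of cycling cells, at 1668, 1597 and 1436 CPM against 1372, 1374 and 1413 CPM. Those changes were small, and neither in a fit on all 24 libraries nor against a fold of 1.2 did any of the 8 pass. Against that fold 0 mitochondrially encoded genes passed, and 3 glycolysis genes fell and 1 rose (edgeR glmTreat at adjusted p under 0.05). Among 23 Appl2 partners and endosome genes 1 rose and 3 fell, against 25.2 % of all genes that passed in either direction. Rab5a, a Rab5 form that binds Appl2, went from 58.2, 64.8 and 61 CPM to 74.1, 71.3 and 77.6 CPM, while Rab5b, Rab7 and Ctnnb1 fell by 0.32, 0.19 and 0.36, and against a fold of 1.2 none of these 4 passed. Appl1, the closest relative of Appl2, differed by -0.09 and did not pass.

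**Figure D3:**
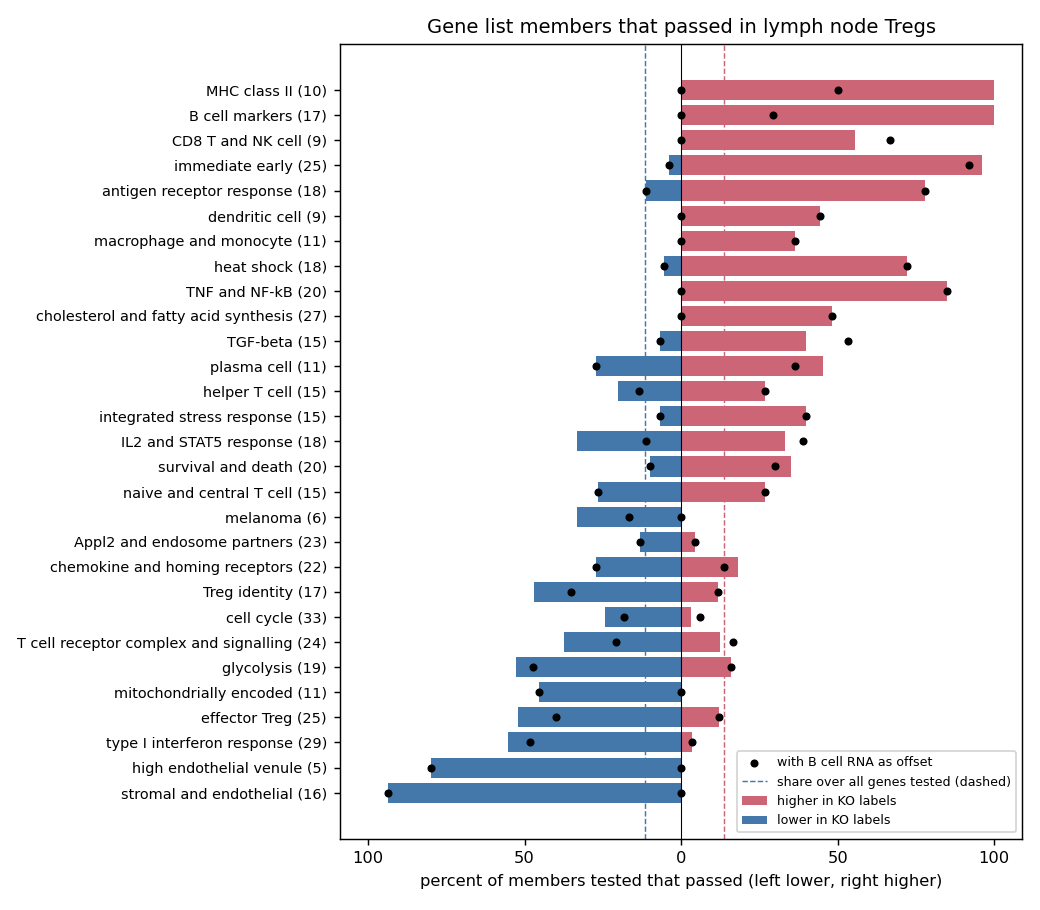
Bars give the percent of tested members of each gene list with at least 5 tested (their number in parentheses) that passed as higher (right) or lower (left) under the KO label, black points the same share beyond B cell RNA, and dashed lines the shares over all genes tested, 13.8 % higher and 11.5 % lower. B cell markers drop from all 17 to 5 of 17 with B cell RNA as offset, but they set that offset, so their drop is built in. The immediate early, heat shock and NF-kB lists change by at most 1 gene.

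Marker genes of other cell types were read in these libraries, and their source was not tested. B cell markers rose for 17 and MHC class II genes for 10 of 10, and beyond B cell RNA 5 members of each still passed, with medians of 0.33 and 0.38. The B cell markers set that share, so their values in that fit are circular. The 2 lists summed to 424 to 446 and 1310 to 1350 CPM under the KO label and to 107 to 119 and 233 to 259 CPM under the WT label. Macrophage and monocyte genes rose for 4 of 11, with Lyz2, lysozyme, from 25.5, 23.4 and 24 CPM to 76.7, 76.8 and 80.1 CPM, while the complement genes C1qa, C1qb and C1qc differed by 0.07, -0.07 and 0.24 and did not pass. That list summed to 428 to 449 CPM against 230 to 256 CPM. Timd4 and Cd209b, lymph node macrophage genes looked up after their values were seen, also rose, by 1.16 ± 0.26 and 1.11 ± 0.21. Dendritic cell genes rose for 4 of 9, with Siglech, a plasmacytoid dendritic cell receptor, from 5.25, 2.11 and 3 CPM to 12.3, 13.7 and 10.1 CPM, and the list summed to 35.3 to 43.7 CPM against 16.7 to 20.1 CPM. CD8 T and NK cell genes rose for 5 of 9, all at under 5 CPM, with Gzmk at 0 in both groups. The offset for B cell RNA does not cover these cells, and their part in genes that rose was not tested.

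Stromal and endothelial genes went the other way. Of 16 tested, 15 fell, with a median of -3.25, or of -3.14 with the 2 genes that had no reads under the KO label set at the lower of their bounds below. Col4a1, a basement membrane collagen, stood at 84, 89.3 and 97.5 CPM under the WT label and at 4.89, 3.24 and 5.27 CPM under the KO label, and Plvap, a protein of endothelial fenestrae, at 22.5, 29.1 and 30 CPM against 2.01, 2.55 and 2.48 CPM. The libraries of the 2 labels were far apart in both. Dcn, decorin, and Pdgfrb, a pericyte receptor, had no reads under the KO label, and were at least 28.2-fold and 17.8-fold lower, taking 3 counts for the whole group as the floor. If both mates were counted, 3 fragments are 6 counts, and the bounds are 14.1-fold and 8.91-fold. The list summed to 348 to 394 CPM under the WT label and to 119 to 135 CPM under the KO label, most of the latter from Pecam1, which T cells also express. Of 5 high endothelial venule genes 4 fell, with Glycam1 at 23.4, 34.6 and 30.2 CPM against 0.251, 0.154 and 0.155 CPM. Sparcl1, Fabp4, Enpp2, Col1a2 and Col3a1 were among the largest falls of all genes and belong with such cells. The part of these cells in other genes that fell was not tested.

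Immunoglobulin genes went in both directions. Ighg1, the IgG1 constant region, stood at 91.8, 90.5 and 110 CPM under the WT label and at 26.1, 27.9 and 25.1 CPM under the KO label, a change of -1.89 ± 0.08, against a change of 0.05 expected from B cell RNA. Ighg2b fell by 1.06, whereas Ighg2c rose by 1.51 ± 0.15. Igha, the IgA constant region, rose by 2.22 ± 0.23, from 1.38, 2.11 and 1.98 CPM to 8.84, 7.79 and 8.99 CPM. From B cell RNA a rise of 0.84 was expected for Igha and of 0.54 for Ighg2c. In lymph node B cells these constant regions changed in the same directions. The changes there were -1.45 for Ighg1, -0.48 for Ighg2b, 0.60 for Ighg2c and 2.12 for Igha. The variable segment Ighv9-3 stood at 72.2, 65.4 and 66.5 CPM against 2.19, 2.16 and 2.48 CPM, which was among the largest falls at 10 CPM or more. Constant and variable segments resemble their relatives, and reads may be shared between them. Of 11 plasma cell genes 5 rose and 3 fell. Melanoma genes were present at low level in both groups, and Tyrp1 and Dct were called lower but lost the call without any 1 library labelled KO. They were highest in WT replicate 3, in which Dct stood at 55.4 CPM against 17.6 and 6.33 CPM in the other libraries of its label. Without that library they differed by 0.11 and 0.18.

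**Figure D4:**
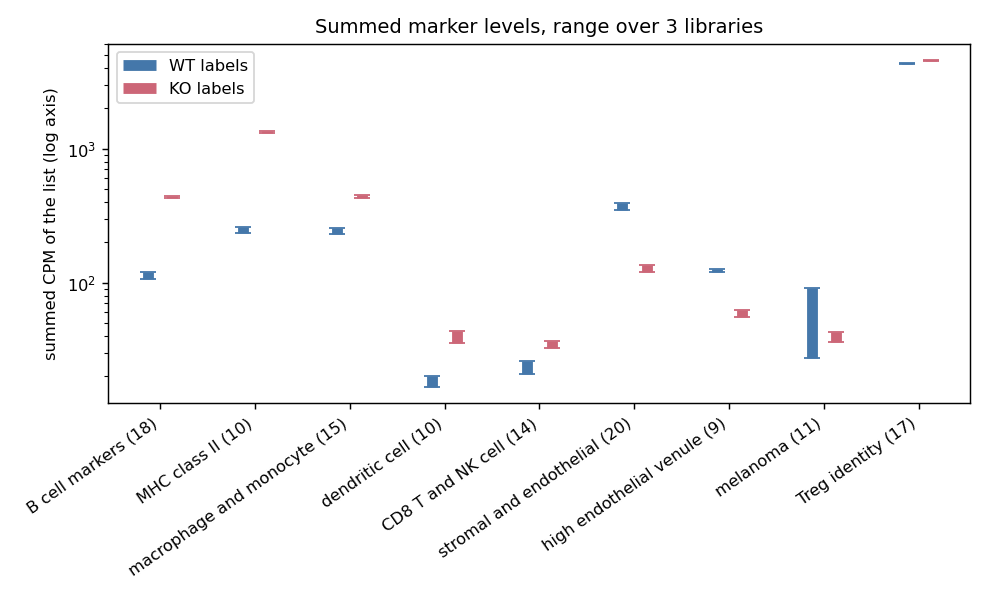
Bars span the lowest to the highest of the 3 libraries of a label in the summed CPM of each marker list (log axis, number of members in parentheses). B cell, MHC class II, macrophage, dendritic and CD8 T and NK cell lists lie higher under the KO label, stromal and high endothelial venule lists lie lower, and melanoma genes overlap.

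The same comparison was tested against lymph node B cells and against tumour Tregs, each with its own libraries of both labels. In lymph node B cells 3116 of 15562 genes passed (20 %), 10.2 % higher and 9.81 % lower, and in tumour Tregs 8295 of 15589 (53.2 %), 25.9 % higher and 27.3 % lower. Of the 2010 genes that rose in lymph node Tregs, 825 (41 %) also rose in lymph node B cells, and they were 52.9 % of the genes that rose there among those tested in both. In tumour Tregs 1387 of the 2010 (69 %) also rose, 36.2 % of the genes that rose there, and 171 fell. B cell markers rose in tumour Tregs as well, for 16 genes with a median of 3.49, as did 9 of 10 MHC class II genes. No offset for B cell RNA was used in the tumour comparison, and the part of such RNA in the overlap was not tested. Of the 1679 that fell, 545 (32.5 %) fell in lymph node B cells and 905 (53.9 %) in tumour Tregs. Of the 124 genes that B cell RNA could not raise and that rose at least 2-fold, 75 (60.5 %) also rose in tumour Tregs. In lymph node B cells 21 of them (16.9 %) also rose. These genes were picked for a level in the B cell libraries labelled KO no higher than in Tregs, which selects against genes that rose there. The share in B cells is partly set by that choice, and no difference between cell types is read from it.

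Whether changes differed was tested by interaction terms. Between lymph node Tregs and lymph node B cells 1656 genes differed (10.6 %), 1081 with the higher change in Tregs (6.95 %) and 575 with the lower (3.69 %). Heat shock genes had the higher change in Tregs for 8 of 18 and the lower for 2, and immediate early genes the lower change in Tregs for 14 of 25 and the higher for 3. Hsph1 changed by 1.36 in Tregs and by 0.19 in B cells, a difference of 1.18, and Zfand2a by 1.88 and -0.00, whereas Nr4a3 changed by 1.65 and 2.47, a difference of -0.82. Nr4a2, of the same family, changed by 2.29 and 1.74, with the higher change in Tregs. The lymph node B cell libraries labelled WT held more T cell reads than those labelled KO, since 16 of 24 T cell receptor genes were lower there, with a median of -1.80, and the differences for T cell genes have to be read beside that. Their part in those differences was not tested.

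Between lymph node and tumour Tregs 5319 genes differed (34.1 %), 2704 with the higher change in the lymph node (17.3 %) and 2615 with the lower (16.8 %). Appl2 fell by 1.13 in tumour Tregs, and its change differed by 1.36 between the tissues. Ctla4, which rose in the lymph node, fell by 0.34 in tumour Tregs, a difference of 0.96. Foxp3 fell by 0.71 in tumour Tregs, a difference of 0.64. Immediate early genes had the lower change in the lymph node for 20 of 25, with medians of 1.04 and 1.67, and cell cycle genes the higher for 22 of 33, with medians of -0.12 and -0.74. The chaperone genes Hsph1, Dnajb4 and Bag3 changed by 1.36, 2.05 and 1.78 in the lymph node and by 1.36, 2.02 and 1.59 in the tumour, and their differences of 0.01, 0.03 and 0.18 did not pass. Slfn2, chosen after its values were seen, fell by 0.77 in the lymph node and rose by 1.04 in the tumour.

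**Figure D5:**
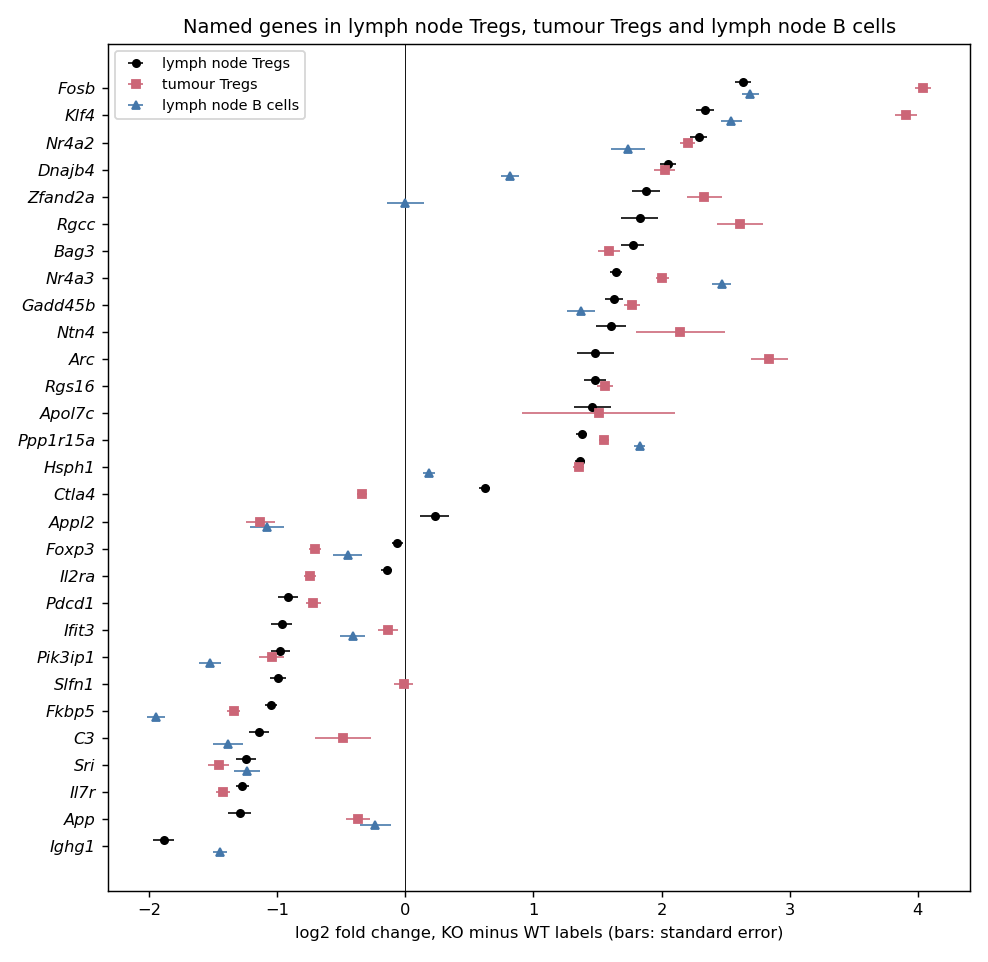
Points give the log2 fold change, KO minus WT label, with its standard error for named genes in lymph node Tregs (circles), tumour Tregs (squares) and lymph node B cells (triangles). Points of 6 or more in size, B cell points of genes under 5 CPM in the B cell libraries labelled KO and the 10 largest falls are not drawn, and Ctla4 lies above 0 in lymph node Tregs and below 0 in tumour Tregs.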

How the data were processed

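The authors deposited raw read counts per gene for 24 libraries. Per the labels' protocols, TRIzol was used to extract RNA, and the kit was for stranded mRNA libraries. The submitters' processing notes name fastp 0.23.4, STAR 2.5.3a, featureCounts and the builds GRCh38 and GRCm39. For the annotation release and strand setting, nothing is given in the sources used here. The deposited exon length column was not used in any test. Here, edgeR 4.0.16 (R 4.3.3) fitted the 6 libraries with TMM scaling, filterByExpr and the quasi-likelihood test, and p-values were adjusted by Benjamini-Hochberg over all genes tested. Interactions used 12 libraries each. Fits beyond B cell RNA added an offset for each library's B cell RNA share. DESeq2 1.42.0 was an alternative.

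Members and gene lists were chosen with earlier results of these data known. Named genes were Appl2, the Treg markers, the 10 largest changes of each kind at a mean of 10 CPM or more, and up to 4 of smallest p per list. Members outside that rule, among them Atf3, Cd69, Tnfrsf9, Tigit, Il10, Tbx21, Ier3, Oasl1, Igha, Chordc1, Hsf1, Asns, Trib3, Stat2, Appl1, Pecam1, Dcn, Pdgfrb and the C1q genes, were chosen after their values were seen. A few genes that this rule gave are not reported here. Promoters came from RefSeq (GRCm38.p6). Between replicates of a label, chi-square per gene was 2.4 to 2.84 under the KO label and 3.14 to 5.98 under the WT label. Counting noise gives about 1, or about 2 if both mates of a pair were counted. Only in the second case do the libraries labelled KO lie near that noise.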

Additional observations from a re-analysis of the deposited data

Results flagged for a closer look

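The change under the KO label differed between settings for the genes below, by the interaction term of edgeR's quasi-likelihood test. Values are lymph node Treg change minus the other change, on the log2 scale. Against lymph node B cells the difference was 1.31 for Appl2, 0.39 for Foxp3, 1.19 for Ctla4 and 1.46 for Hk2. It was -2.43 for Ccr2, -0.38 for Rab7, -0.71 for Bcl2 and 1.84 for Marco. The B cell libraries labelled WT held more T cell reads than those labelled KO, and the part of this in the values for Foxp3 and Ctla4 was not tested.

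Against tumour Tregs the difference was 1.36 for Appl2, 0.64 for Foxp3, 0.60 for Il2ra and 0.96 for Ctla4. It was -0.56 for Cd3g, -4.46 for Fabp4, -7.31 for Ighg2b, 2.998 for Apoe and 3.89 for Siglech. The last 4 are markers of other cell types, whose share in the sorted cells was not tested.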

How the results depend on the processing

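Of 3689 genes called, 1537 passed against a fold of 1.2 (978 higher, 559 lower), and a fit on all 24 libraries called 980 lower. Upper-quartile scaling called 1808 higher and 2105 lower, so that 46.2 % of calls were higher against 54.5 %, and DESeq2 called 1611 and 1263. Leaving out 1 library gave 2888 to 3777 calls, 1645 to 2073 higher and 1243 to 1704 lower. With a replicate block 3583 genes passed, 93.9 % of the calls kept. No shared deviation was seen between same-numbered libraries (r between -0.0108 and -0.00629). Whether equal numbers pair the libraries is not settled by these values, since the libraries labelled KO may lie near counting noise. Beyond B cell RNA, leaving out 1 library gave 2453 to 3192 calls, and the share at the highest marker gave 872 (523 higher, 349 lower). That marker, Vpreb3, is at 2.38 CPM in B cells, and the highest share among markers of at least 50 CPM, chosen after seeing the data, gave 3145. At the highest marker the change turned to -6.35 for Scd1, -7.29 for Pax5, -7.70 for Cd72, -4.08 for Ighg2c, -9.74 for H2-Ab1, -7.86 for H2-Eb1, -9.20 for Cd74 and -4.65 for H2-Aa. None of these changes passed (edgeR, adjusted p from 0.162 to 0.396). The share from that marker was 7.34, 0 and 25.2 % in the libraries labelled WT, so these values are unstable and no reversal is read from them. Leaving out 1 library moved Tyrp1 between -2.12 and 0.11 (-2.06 and 0.18 beyond B cell RNA) and Dct between -1.46 and 0.18, the values above 0 being those without WT replicate 3. The count of genes B cell RNA could not raise, 554, was 793 with the B cell level taken from the lymph node B cell libraries labelled WT. It was 417 with DESeq2, 365 in the fit on all 24 libraries and 250 against a fold of 1.2. With the limit at 0.5 times the Treg level it was 237, at 2 times 1397, and without 1 library 442 to 576. The cause was not tested. Interaction counts without 1 library were 1338 to 1691 against B cells and 4879 to 5266 against tumour Tregs.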
